A study of Mus musculus with 18 samples.

Results

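Wild-type MRTFA was compared with Y238A MRTFA in AT-3, a mouse mammary carcinoma cell line, by mRNA sequencing. The members were chosen by construct and cell line, which gave 6 of the 18 libraries of the series: 3 with wild-type MRTFA and 3 with Y238A MRTFA. The labels describe the Y238A form as deficient in SRF binding. Another 3 AT-3 libraries carried the empty vector, and E0771, another mouse mammary carcinoma line, had the same constructs. Every group of both lines carried the doxycycline-inducible retroviral vector pRetroX and received doxycycline at 2 µg/ml for 48 h. Expression was driven from the vector, and the cells kept their own Mrtfa, Mrtfb and Srf genes. The labels do not say whether a transduced line was 1 clone or a pool, nor that the 3 libraries of a group came from separate cultures, so the p-values may measure technical spread alone. Effects of the construct and of the culture cannot be told apart. Of the 32286 entries in the table, 16485 had enough counts in these 6 libraries to be tested.

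MRTFA is a coactivator held in the cytoplasm by monomeric actin. When actin polymerises, MRTFA is released, enters the nucleus and binds SRF (serum response factor), a transcription factor that recognises the CArG box. Many SRF targets encode actin itself, its regulators and the contractile apparatus of smooth muscle, and SRF can instead be engaged by the ternary complex factors Elk1, Elk3 and Elk4, which act at immediate early genes. MRTFA also has a SAP domain, and the related myocardin drives smooth muscle genes through the same SRF sites.

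The 6 libraries held 95464249 to 115260128 counts. Values below are CPM, which are counts scaled to a common library size with TMM factors, in replicates 1, 2 and 3, or log2 fold changes of wild type over Y238A with their SE from edgeR's quasi-likelihood test, and a gene was called where the Benjamini-Hochberg adjusted p was under 0.05. Within the wild-type group, replicate 1 was the library least like its fellows: the chi-square between 2 libraries' counts, divided by its degrees of freedom, was 40.1 and 51.8 for its pairs and 7.12 for the remaining pair. Some transcripts of the wild-type group also appeared in Y238A libraries. Across 28 genes above 10 CPM with wild type and below 0.02 CPM with empty vector, Y238A replicates 1, 2 and 3 held a median of 1.41%, 0.284% and 0.12% of the wild-type mean. The mean of these shares corresponds to a log2 ratio of 7.37, and its part in the fold changes of genes near 0 with Y238A was not tested; values without Y238A replicate 1 are given where they moved. The 10 most abundant genes took 9.2% to 9.57% of the counts with wild type and 5.15% to 5.4% with Y238A.

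The construct entry, MRTFA, checked the labels for the presence of a construct. It was at 6562, 4472 and 4053 CPM with wild type, at 2318, 2017 and 1964 CPM with Y238A and at 0.0235, 0 and 0.0254 CPM with empty vector. The entry was present in every library that should hold a construct. It was more abundant in the libraries labelled wild type than in those labelled Y238A, with no overlap between the groups. A single entry does not tell the wild-type and Y238A forms apart, so which form a library held rests on the labels. The log2 fold change was 1.26 ± 0.20 (SE) (adjusted p = 8.50e-05), or 2.4-fold, so the form of the protein and the amount of its mRNA cannot be told apart in what follows. The entry has no coordinates in the table, and its species is not given in the sources used here.

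Srf itself (chr17:46548329-46556175, minus strand in GRCm38) was high with wild type and low with Y238A. It stood at 534, 540.4 and 547 CPM with wild type, at 97.1, 88 and 93 CPM with Y238A and at 189, 184 and 197 CPM with empty vector. The 3 groups did not overlap, and Y238A lay below the empty vector. Wild type over Y238A was 2.54 ± 0.07 (SE) (adjusted p = 6.10e-16), and Y238A over empty vector was -1.04 (adjusted p = 7.79e-10). These bulk values do not separate fewer expressing cells from less RNA per cell.

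The endogenous coactivators moved the other way. Mrtfa was at 102, 107 and 102 CPM with wild type, against 167, 176 and 170.0 CPM with Y238A, a change of -0.72 ± 0.04 (SE) (adjusted p = 7.63e-12). Mrtfb was at 33.7, 35.4 and 32.1 CPM with wild type and 58.4, 58 and 64 CPM with Y238A, a change of -0.83 ± 0.05 (SE) (adjusted p = 2.40e-11). Both were lower in every wild-type library than in every Y238A library. Of the ternary complex factors, Elk1 rose by 0.78, Elk4 rose by 0.25 and Elk3 fell, at -0.91 on the log2 scale.

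Myocardin (Myocd), the muscle member of the family, was detected with wild type alone. It was at 0.781, 0.81 and 0.749 CPM with wild type and at 0 counts in the 6 Y238A and empty vector libraries. With a floor of 3 counts over the Y238A group, that is at least 77.2-fold higher; most counts were even, and if each mate of a pair was counted by itself, bounds of this kind would be lower. In all, 4 of the 7 genes of this family rose and 3 fell, beside 32.6% higher and 39.4% lower over all genes tested.

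**Figure D1:**
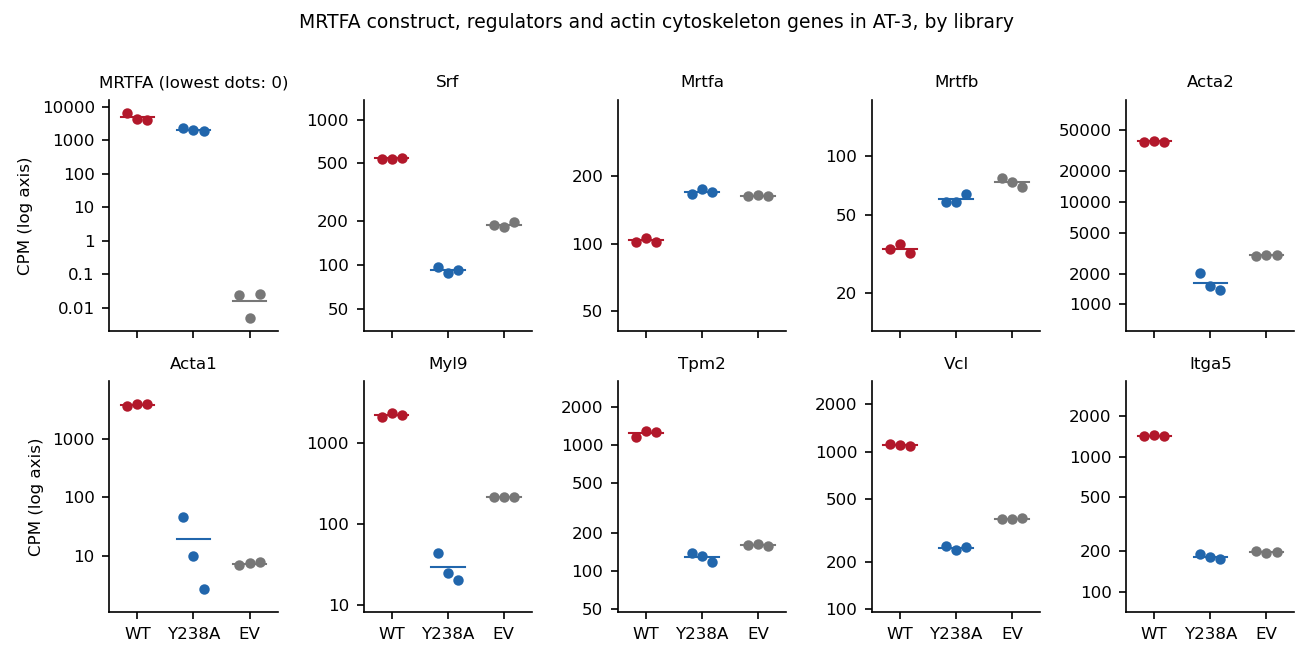
CPM on a log axis in each AT-3 library for the MRTFA construct, Srf, Mrtfa, Mrtfb and 6 genes of the actin cytoskeleton and its adhesions, with wild type (WT) left, Y238A next and empty vector (EV) right. Each point is 1 library, each bar the mean of 3, and a value of 0 is drawn as the lowest dot; Srf averaged 541 CPM with wild type, 92.7 CPM with Y238A and 190.2 CPM with empty vector.

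Across all genes, 5373 were higher with wild type (32.6% of those tested) and 6495 were lower (39.4%), and the groups did not overlap for 12880 genes (78.1%). The remaining 4617 were not called, so counts within the gene lists below are to be read against these shares. Which direction held more genes turned with the processing: with DESeq2's size factors in the same test, 6347 were higher and 5218 lower. The median log2 fold change over all genes was -0.08, and 0.08 with those size factors. Large changes ran mostly upward under the standard scaling. At least 2-fold, 3368 genes were higher and 2137 lower. At least 16-fold, 1227 were higher and 124 lower, and at least 64-fold, 638 were higher and 18 lower. Genes at or above 1 CPM in one group and under 0.1 CPM in the other numbered 365 with wild type high and 25 with Y238A high.

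**Figure D2:**
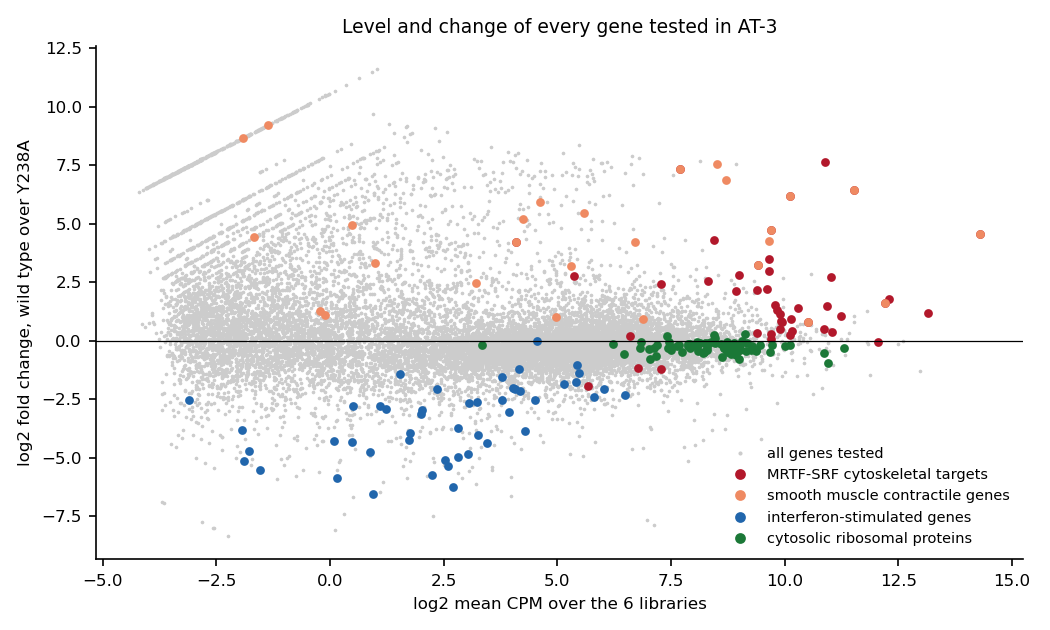
Log2 fold change of wild type over Y238A in AT-3 (vertical axis) against the log2 of the mean CPM over the 6 libraries (horizontal axis), 1 point per gene tested, with 4 gene lists coloured. The 1227 genes at least 16-fold higher with wild type outnumber the 124 that were at least 16-fold lower, and the parallel lines at the upper left are genes with 0 or few counts with Y238A.

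The actin cytoskeleton genes known as MRTF-SRF targets were mostly higher with wild type. Of 46 listed and tested, 40 rose, 4 fell and 2 were not called, with a median log2 fold change of 1.45 against -0.08 over all genes. The cytoplasmic actins were among them. Actb, which encodes beta-actin, was at 11814, 13206 and 12964 CPM with wild type and 5662, 5406 and 5582 CPM with Y238A, a change of 1.19 ± 0.05 (SE) (adjusted p = 1.51e-14). Actg1, the gamma-actin gene, changed by 1.05 ± 0.05 (SE) (adjusted p = 2.25e-13). The actin crosslinker filamin A (Flna) was at 8042, 7774 and 7588 CPM with wild type and 2221, 2255 and 2325 CPM with Y238A, 1.78 on the log2 scale (adjusted p = 1.54e-16). For these 3 genes the lowest wild-type library lay above the highest Y238A library.

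Several members with the smallest p-values of the list tie actin to adhesions. Vinculin (Vcl, chr14:20929398-21033676, plus strand) links integrin complexes to actin filaments. It was at 1128, 1104 and 1081 CPM with wild type, at 253, 238.1 and 247 CPM with Y238A and at 372, 374 and 378 CPM with empty vector, a change of 2.17 ± 0.04 (SE) between the MRTFA forms (adjusted p = 3.29e-19). Itga5, the integrin subunit that pairs with beta 1 to bind fibronectin, was at 1419.9, 1453 and 1429 CPM with wild type and 190.5, 180.3 and 176 CPM with Y238A, 2.98 ± 0.05 (SE) (adjusted p = 5.45e-20). Neither gene had overlapping groups. The Z-line and stress fibre adaptor Pdlim5 rose by 2.79 ± 0.04 (SE), the LIM protein Csrp1 by 2.71 ± 0.06 (SE) and the myosin light chain Myl6 by 1.496 ± 0.04 (SE) on the log2 scale, with adjusted p-values of 5.45e-20, 6.56e-18 and 7.20e-17.

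The exceptions were named in full because they were few. Tpm3, a tropomyosin, fell, at -0.40; Myl12b, a regulatory light chain, at -1.20; Ctnnal1, an alpha-catenin relative, at -1.92; and the capping protein Capg, at -1.18. Myh9, the heavy chain of non-muscle myosin IIA, was at 4229.5, 4199 and 4164 CPM with wild type and 4105, 4341 and 4575 CPM with Y238A (adjusted p = 0.292), and Lima1, a LIM protein of actin bundles, had an adjusted p of 0.281. The groups of these 2 genes overlapped. Lima1 was called higher, at 0.24, with DESeq2's size factors, and Myh9 was called higher with those size factors, at 0.10, but lower with library totals as the scaling, at -0.11.

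Smooth muscle contractile genes rose without exception among those tested: 27 of 27, out of 28 listed, with a median of 4.42 that was the same with the 2 genes at 0 counts set to their bounds. Acta2 (chr19:34241090-34255590, minus strand), smooth muscle alpha-actin, was at 38836, 39657 and 38061 CPM with wild type, 2009.5, 1513 and 1368 CPM with Y238A and 2973, 3046 and 3066 CPM with empty vector. Every wild-type library was above every other library, and the change over Y238A was 4.57 ± 0.13 (SE) (adjusted p = 2.25e-13). Cnn1, the actin-binding protein calponin, was at 1585, 1660.0 and 1588 CPM with wild type and 75.2, 57.1 and 51.2 CPM with Y238A, 4.72 ± 0.56 (SE) (adjusted p = 5.57e-06). The kinase and the light chain of smooth muscle contraction rose together with them.

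Myl9 (chr2:156775420-156781658, plus strand), the regulatory light chain, was at 2084, 2292 and 2210.0 CPM with wild type, 43.8, 25.2 and 20.5 CPM with Y238A and 214, 214 and 216 CPM with empty vector, 6.20 ± 0.30 (SE) (adjusted p = 4.74e-10). Mylk, the kinase that phosphorylates it, was at 847, 827 and 824 CPM with wild type and 12.9, 4.68 and 3.44 CPM with Y238A, 6.89 ± 0.41 (SE) (adjusted p = 4.84e-09), and 7.77 without Y238A replicate 1. Myh11, the smooth muscle myosin heavy chain, was at 736, 711 and 723 CPM with wild type and 7.58, 2.83 and 1.26 CPM with Y238A, 7.53 ± 0.50 (SE) (adjusted p = 1.51e-08), and 8.55 without that library. Myl9 was lowest with Y238A, below the empty vector. Mylk and Myh11 were higher in every Y238A library than in any empty vector library, where Mylk averaged 2.25 CPM and Myh11 1.07 CPM. For the shared transcripts above, Y238A replicates 1, 2 and 3 held a median of 1.41%, 0.284% and 0.12% of the wild-type mean. The part of such shares in the Mylk and Myh11 values with Y238A was not tested. Tropomyosin Tpm2 (3.24), nexilin (Nexn, 4.23) and leiomodin 1 (Lmod1, 7.35, and 8.62 without Y238A replicate 1) were also called higher, while transgelin (Tagln), at 32, 31.7 and 32.6 CPM with wild type and 2.1, 1.41 and 1.69 CPM with Y238A, rose by 4.21.

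Several sarcomere genes of heart and skeletal muscle were on with wild type and close to off with Y238A. Of 31 tested of 41 listed, 21 rose, 3 fell and 7 were not called, with a median of 3.19. Acta1 (chr8:123891769-123894751, minus strand), skeletal muscle alpha-actin, was at 3644, 3858 and 3879 CPM with wild type, 45.1, 9.89 and 2.69 CPM with Y238A and 6.9, 7.45 and 7.68 CPM with empty vector, 7.62 ± 0.94 (SE) (adjusted p = 8.16e-06). Actc1 (chr2:114047282-114053548, minus strand), the cardiac actin, was at 978, 940.1 and 998 CPM with wild type, 11.7, 3.16 and 0.842 CPM with Y238A and 0.0235, 0 and 0.0508 CPM with empty vector, 7.53 ± 0.72 (SE) (adjusted p = 7.14e-07). In both, Y238A replicate 1 was the highest of its group, as it was for the shared transcripts above, and without it the changes were 9.33 and 9.01.

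Sarcomeric alpha-actinin, Actn2, rose by 7.38 ± 0.32 (SE) (adjusted p = 7.84e-14; 8.14 without Y238A replicate 1) and the myosin heavy chain Myh6 by 8.01 ± 0.40 (SE) (adjusted p = 1.31e-11; 9.80 without that library). The 3 genes that fell were Tnnt2, cardiac troponin T, which was at 5.97, 7.37 and 6.57 CPM with wild type and 34.3, 31.3 and 28.2 CPM with Y238A, Tnni3, cardiac troponin I (-2.59), and Nebl, a nebulin relative (-2.10). Some factors that make skeletal myoblasts were absent or nearly so. Over the 3 wild-type and the 3 Y238A libraries, Myod1 had 4 and 16 counts and Myog 0 and 0. The fusion gene Mymk had 0 and 0. Pax7 had 34 and 0. Pax3, in contrast, was present, with 6660 and 14667 counts. Of the 5 tested of 12 such regulators, 3 rose (Mef2a, Mef2c and Tead4) and 2 fell (Mef2d and Pax3); Mef2c and Pax3 were not called by DESeq2.

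The CArG box was looked for in the promoters, because it is the sequence SRF binds. The windows below are from RefSeq promoters of GRCm38.p6, which run from 250 bases before to 50 bases after a start, and show the matches, in capitals, of genes just described. The motif was CC, then any of A or T at each of 6 positions, then GG, on both strands, which is the same motif read either way.
Srf (chr17:46556195-46556264, minus strand): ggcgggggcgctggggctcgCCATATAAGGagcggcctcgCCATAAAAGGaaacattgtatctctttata
Vcl (chr14:20929151-20929200, plus strand): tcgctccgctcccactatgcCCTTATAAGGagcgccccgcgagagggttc
Myl6 (chr10:128493030-128493079, minus strand): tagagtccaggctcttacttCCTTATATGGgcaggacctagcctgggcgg
Myl9 (chr2:156775283-156775332, plus strand): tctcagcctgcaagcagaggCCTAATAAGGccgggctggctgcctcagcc
Acta1 (chr8:123894819-123894868, minus strand): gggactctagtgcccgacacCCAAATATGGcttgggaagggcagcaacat
Actc1 (chr2:114052893-114052942, minus strand): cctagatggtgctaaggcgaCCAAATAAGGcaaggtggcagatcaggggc

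Each window reads 5′ to 3′ on the strand of its gene. The Srf window holds 2 matches and the others 1. A match was present in 1.63% of all 32851 promoters and in 1.45% of those of tested genes. It was present in 2.96% of the promoters of genes called higher with wild type, in 0.63% of those called lower and in 0.85% of those not called. Genes at least 16-fold higher had it in 3.96% of their promoters. Of the MRTF-SRF list, 11 of 48 promoters (22.9%) had a match, of the sarcomere list 5 of 30 (16.7%), of the immediate early list described below 6 of 32 (18.8%) and of the smooth muscle list 3 of 25 (12%). Promoters of 1 gene can overlap and hold the same match, as for Egr2. Counted by gene, the shares were 10 of 40 (25.0%), 5 of 24 (20.8%), 3 of 26 (11.5%) and 2 of 21 (9.52%), against 1.76% of tested genes. Most promoters of genes called higher had none in this window, which says nothing of sites elsewhere.

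Immediate early genes, which SRF switches on within minutes of serum, rose more often than they fell. Of 32 tested, 21 rose, 5 fell and 6 were not called, with a median of 0.83. Fos, a component of AP-1, was at 21.5, 18.6 and 20.001 CPM with wild type and 4.93, 4.61 and 4.31 CPM with Y238A, 2.12 ± 0.19 (SE) (adjusted p = 6.85e-09). Arc, a neuronal activity gene, was at 318, 276 and 297 CPM with wild type, 6.73, 4.59 and 3.75 CPM with Y238A and 0.893, 0.712 and 0.889 CPM with empty vector, 5.88 ± 0.17 (SE) (adjusted p = 6.62e-14). Both were higher in all 3 wild-type libraries than in any Y238A library. Ier2 rose by 1.76 and the small Maf factor Maff by 1.98, whereas Ier3 fell, at -1.2998, and Jund fell, at -1.26.

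Genes shared with the YAP-TEAD programme, which responds to cell tension too, were split. Of 27, 16 rose and 8 fell, with a median of 0.30. Ccn2, the matricellular protein also called CTGF, was at 618, 709.5 and 673 CPM with wild type, 49.4, 29.8 and 21.7 CPM with Y238A and 111, 88 and 66.7 CPM with empty vector, 4.31 ± 0.32 (SE) (adjusted p = 4.64e-08). Ccn1 was at 1312, 1339 and 1206 CPM with wild type and 331, 288 and 211 CPM with Y238A, 2.22 ± 0.20 (SE) (adjusted p = 2.60e-07). Y238A held less of both than the empty vector, and no groups overlapped. Other members fell: Myof, a membrane repair protein, at -2.27, and the receptor kinase Axl, at -0.83.

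The highest fold changes were of genes almost silent with Y238A. Among genes with a mean of at least 1 CPM, the 10 highest fitted values were of Lcp2, Mageb1, Acsm1, Cyp4a12b, Gsdmc, H2-M9, Lce1l, Fcrl1, Myo18b and Pnlip. Lcp2, a signalling adaptor of T cells and platelets, was at 3.75, 4.39 and 4.17 CPM with wild type and at 0 counts with Y238A, at least 404-fold higher with a floor of 3 counts over the group. Mageb1, of the cancer-testis antigen family, was at least 374-fold higher and Acsm1, an acyl-CoA synthetase, at least 309-fold, though Acsm1 was not called by DESeq2. Cyp4a12b had 1 Y238A library with a count and was 1124-fold higher by counts, with a 95% counting interval from 201 to 44443. Fcrl1, a receptor of B cells, was at 9.91, 10.1 and 11.8 CPM with wild type and 0.0791, 0 and 0 CPM with Y238A. Myo18b, a myosin of striated muscle, was at 6.27, 6.08 and 7.17 CPM with wild type and 0.0297, 0.0199 and 0 CPM with Y238A, 8.49 ± 0.34 (SE) (adjusted p = 3.51e-13; 9.24 without Y238A replicate 1). The tissues these genes are known from differ widely, from lymphocytes to pancreas (Pnlip, a lipase) and skin (Lce1l).

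Among genes of at least 100 CPM in the higher group, the leaders were P2ry10b, Cobl, Uts2b, Sprr2k, Il1r2, Acta1, Pilra, Muc3a, Pdlim3 and Myh11. Cobl, an actin nucleator, was at 217, 229.8 and 221 CPM with wild type, 2.51, 0.298 and 0.168 CPM with Y238A and 0.141, 0.194 and 0.178 CPM with empty vector, 7.79 ± 0.58 (SE) (adjusted p = 5.26e-08). Il1r2, the decoy receptor for interleukin 1, was at 136, 139 and 135 CPM with wild type, 1.17, 0.695 and 0.147 CPM with Y238A and 0.0235, 0.0755 and 0 CPM with empty vector, 7.65 ± 0.40 (SE) (adjusted p = 8.26e-10). Both were highest in replicate 1 among the Y238A libraries, and without it the changes were 9.98 for Cobl and 8.41 for Il1r2. Pdlim3, a partner of alpha-actinin, changed by 7.55, or 9.55 without that library. The cornified envelope gene Sprr2k was at 528, 598 and 556 CPM with wild type and 6.19, 1.53 and 0.505 CPM with Y238A, 7.66, or 9.19 without it.

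Interferon-stimulated genes were lower with wild type than with Y238A almost throughout. These genes are switched on when interferon receptors activate the factor ISGF3, which holds Stat2 and Irf9, and encode antiviral effectors and sensors of viral RNA. Of 47 tested of 50 listed, 46 fell and 1 was not called, with a median log2 fold change of -2.95. The same number fell with DESeq2's size factors and with library totals as the scaling. Their summed level was 250.1 to 260.5 CPM with wild type, 991.3 to 1165 CPM with Y238A and 540.5 to 580.0 CPM with empty vector, so the groups did not overlap and Y238A was the highest.

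Stat2 and Irf9 were themselves among the genes that fell. Stat2 was at 17.7, 18 and 17.6 CPM with wild type, 82.9, 100.3 and 98.5 CPM with Y238A and 27.9, 31.2 and 30.8 CPM with empty vector, -2.40 ± 0.14 (SE) (adjusted p = 1.52e-10). Irf9 changed by -2.16 ± 0.10 (SE) (adjusted p = 1.78e-13). For both the lowest Y238A library was above every empty vector library, and the highest wild-type library below them all. Irf1, which interferon gamma induces, was at 30.3, 29.1 and 29.9 CPM with wild type, 139, 161 and 149.9 CPM with Y238A and 41.1, 45.4 and 42.6 CPM with empty vector, -2.33 ± 0.07 (SE) (adjusted p = 7.66e-16), and Irf7 changed by -2.95.

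Antiviral effectors and the enzymes around them fell as well. Rsad2, which encodes viperin, was at 0.018, 0.107 and 0 CPM with wild type, 3.46, 3.76 and 4.16 CPM with Y238A and 0.047, 0.0432 and 0.0762 CPM with empty vector, -6.52 ± 0.29 (SE) (adjusted p = 7.23e-13; -8.34 without wild-type replicate 2). Ifit1, which binds foreign RNA caps, was at 0.431, 0.554 and 0.708 CPM with wild type, 14.6, 16 and 17.1 CPM with Y238A and 1.74, 1.68 and 1.98 CPM with empty vector, -4.82 ± 0.16 (SE) (adjusted p = 2.07e-15). Rsad2 was near 0 with wild type and with empty vector alike, whereas Ifit1 was lowest with wild type. Isg15, a ubiquitin-like modifier, was at 7.47, 5.83 and 6.2 CPM with wild type and 25.7, 28.1 and 27 CPM with Y238A, -2.05 ± 0.16 (SE) (adjusted p = 1.52e-09), and its activating enzyme Uba7 was at 0.126, 0.0213 and 0 CPM with wild type and 9.53, 9.99 and 9.37 CPM with Y238A, -7.48 ± 0.41 (SE) (adjusted p = 4.42e-12; -9.67 without wild-type replicate 1). Tetherin (Bst2) fell, at -3.06, the guanylate-binding protein Gbp3 at -4.01 and the immunity GTPase Irgm1 at -2.05, as did the RNA sensors Ddx58, at -2.55, and Ifih1, at -3.12.

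Ifit2 was the list's exception. It was at 24.5, 22.8 and 22.8 CPM with wild type, 22.3, 23.7 and 25 CPM with Y238A and 28.1, 31.8 and 31.4 CPM with empty vector, -0.02 ± 0.10 (SE) (adjusted p = 0.876), and its wild-type and Y238A libraries overlapped.

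**Figure D3:**
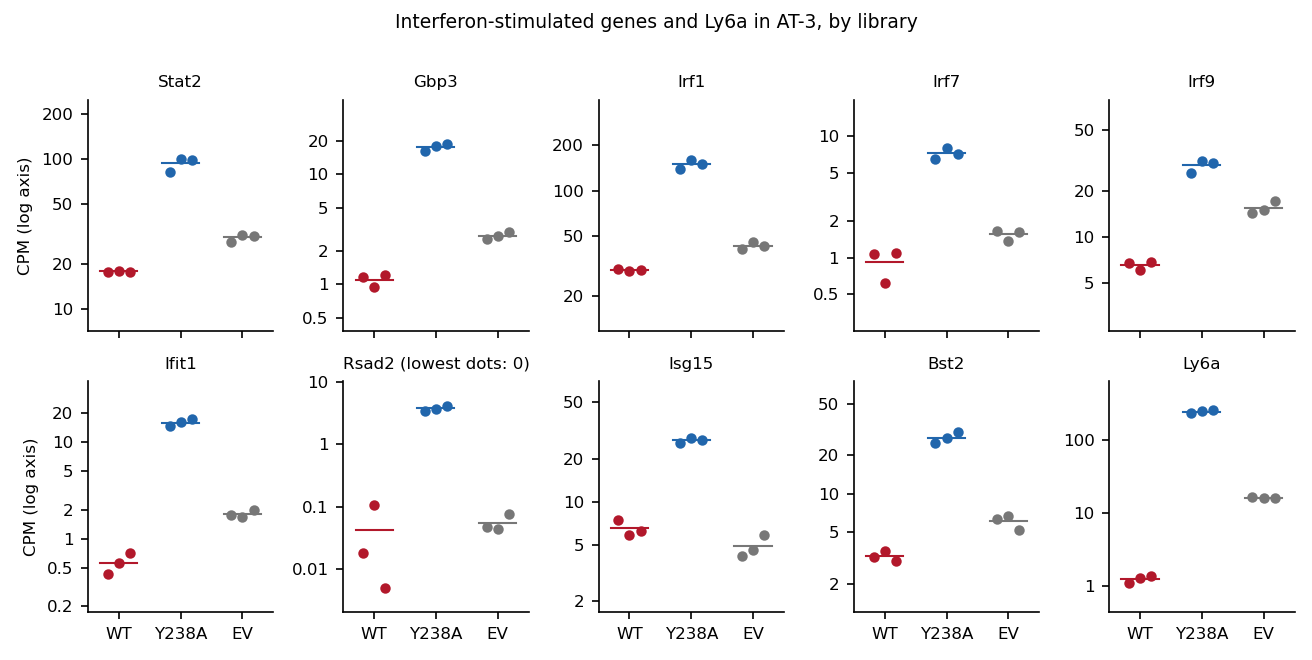
CPM on a log axis in each AT-3 library for 9 interferon-stimulated genes and Ly6a, with wild type (WT) left, Y238A next and empty vector (EV) right. Each point is 1 library, each bar the mean of 3, and a value of 0 is drawn as the lowest dot; every Y238A library lies above every wild-type and empty vector library in these genes.

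Promoters of these genes were searched for the core of the interferon-stimulated response element, which ISGF3 and interferon regulatory factors bind. The motif, GAAANNGAAA on both strands, was added after the results were seen, and overlapping matches were kept. The windows, from the same RefSeq table, are of effectors named above and of Oas1a, the sensor that makes 2′-5′ oligoadenylate, which was at 0, 0 and 0.0416 CPM with wild type and 0.584, 0.715 and 0.715 CPM with Y238A; capitals mark the matches.
Rsad2 (chr12:26456543-26456592, minus strand): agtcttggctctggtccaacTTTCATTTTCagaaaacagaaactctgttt
Ifit1 (chr19:34640765-34640833, plus strand): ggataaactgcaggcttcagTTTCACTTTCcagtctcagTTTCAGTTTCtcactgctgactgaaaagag
Isg15 (chr4:156200855-156200916, minus strand): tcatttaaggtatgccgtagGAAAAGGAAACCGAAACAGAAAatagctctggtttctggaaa
Bst2 (chr8:71537567-71537622, minus strand): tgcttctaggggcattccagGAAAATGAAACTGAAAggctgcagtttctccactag
Oas1a (chr5:120907510-120907565, minus strand): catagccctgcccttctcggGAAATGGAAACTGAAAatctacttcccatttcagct
Gbp3 (chr3:142559979-142560034, plus strand): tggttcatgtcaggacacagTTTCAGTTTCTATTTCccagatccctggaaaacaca
Irgm1 (chr11:48871415-48871470, minus strand): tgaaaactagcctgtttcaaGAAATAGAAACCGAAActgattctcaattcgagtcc

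The motif was in 3.44% of all promoters and 3.11% of those of tested genes. Of the interferon list, 21 of 41 promoters (51.2%) had it and 0 had a CArG box. Of genes at least 16-fold lower with wild type, 24 of 97 promoters (24.7%) had it, against 3.67% of the promoters of genes at least 16-fold higher. The share was 5.74% for genes at least 2-fold lower and 3.58% for all genes called lower, against 2.64% for all called higher, so it stood well above that of tested genes in the strongly lowered class and close to it over all lowered genes. None of those 97 promoters held a CArG box.

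Antigen presentation genes moved with the interferon list only in part. Of 30 tested, 18 fell and 8 rose, with a median of -0.96. For wild type over empty vector, 12 were higher and 10 lower, with a median of 0.07. For Y238A over empty vector, 19 were higher and 3 lower, with a median of 0.87. H2-K1, a class I heavy chain, was at 60.2, 59.2 and 61.2 CPM with wild type, 145, 149.8 and 145 CPM with Y238A and 70.9, 70.1 and 69.7 CPM with empty vector, -1.28 ± 0.04 (SE) (adjusted p = 1.71e-15). The immunoproteasome subunit Psmb10 fell, at -2.40, and its activators Psme1 and Psme2 fell, at -2.01 and -1.97. In the other direction, B2m, the invariant light chain of class I, was at 1136, 1161 and 1135 CPM with wild type and 687, 701 and 704 CPM with Y238A, 0.71 ± 0.03 (SE) (adjusted p = 1.28e-13). Chemokine, cytokine and NF-kB genes fell in 21 of 35 and rose in 7, with a median of -0.55. Ccl2, which attracts monocytes, was at 0.503, 0.64 and 0.874 CPM with wild type and 6.61, 5.86 and 5.64 CPM with Y238A, -3.17 ± 0.17 (SE) (adjusted p = 1.87e-12), and Csf1, the macrophage growth factor, changed by -1.39.

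The lowest fold changes were led by genes of the Ly6 family, which encode small surface proteins anchored by a lipid. The 10 lowest were Ly6i, Ly6c1, Ly6a, Uba7, Orm1, Csf2rb, Dio2, Rsad2, Fgfbp1 and Rtp4. Ly6a (chr15:74994877-74998031, minus strand), known as the stem cell antigen Sca-1, was at 1.08, 1.28 and 1.35 CPM with wild type, 235, 251 and 263 CPM with Y238A and 16.5, 16.4 and 16.1 CPM with empty vector. Its neighbour Ly6c1 (chr15:75044018-75048830, minus strand) was at 1.48, 0.853 and 1.14 CPM with wild type, 258, 270.2 and 304 CPM with Y238A and 12.4, 11.3 and 13.3 CPM with empty vector. Y238A was the highest and wild type the lowest for both, with no overlap, and wild type over Y238A was -7.66 ± 0.10 (SE) for Ly6a (adjusted p = 6.12e-21) and -7.89 ± 0.14 (SE) for Ly6c1 (adjusted p = 6.29e-18). Ly6 genes are near-identical relatives, so reads could have been split among them in the counting. The deiodinase Dio2, which activates thyroid hormone, was at 0.341, 0.341 and 0.26 CPM with wild type and 28.8, 32.9 and 32.8 CPM with Y238A, -6.64 ± 0.21 (SE) (adjusted p = 5.56e-16).

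Among genes of at least 100 CPM in the higher group, Vdr, the vitamin D receptor, was at 12.8, 13.5 and 12.4 CPM with wild type, 464, 464 and 436 CPM with Y238A and 207, 219 and 218 CPM with empty vector, -5.14 ± 0.14 (SE) (adjusted p = 4.45e-14). Col5a3, a type V collagen chain, was at 18, 18.7 and 18 CPM with wild type, 449.8, 440.2 and 387 CPM with Y238A and 36.5, 38.4 and 37.2 CPM with empty vector, -4.54 ± 0.06 (SE) (adjusted p = 6.53e-21). Vdr in empty vector cells lay between the constructs, and Col5a3 was high with Y238A alone. Synpo, an actin-associated protein of kidney podocytes, fell, at -4.64, and Xdh, the xanthine oxidase gene, fell, at -4.22, and so did Ccn5, Masp1, Chst1 and Il1rl1, between -4.59 and -4.204.

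Genes that move calcium and potassium, the ions named in the series title, rose more often than they fell. Of 64 tested calcium channel, pump and store genes, 33 rose and 19 fell, with a median of 0.80. With a stricter low-count filter 51 remained, of which 25 rose and 18 fell, and the median was 0.37. Trpv2, a cation channel opened by stretch and heat, was at 75.1, 83.8 and 84.1 CPM with wild type, 0.791, 0.278 and 0.168 CPM with Y238A and 0.682, 0.496 and 0.812 CPM with empty vector, 7.597 ± 0.29 (SE) (adjusted p = 1.57e-11; 8.58 without Y238A replicate 1). Ryr3, a ryanodine receptor that releases stored calcium, was at 28.5, 20.6 and 16.6 CPM with wild type and 0.732, 0.387 and 0.284 CPM with Y238A, 5.54 ± 0.37 (SE) (adjusted p = 3.05e-10; 6.12 without that library). Both were higher in every wild-type library. Junctophilin 2 (Jph2), which holds the store against the surface membrane, was at 3.05, 3.63 and 3.32 CPM with wild type and 0.0396, 0 and 0 CPM with Y238A.

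Store-operated entry genes moved apart from each other. Orai1, the pore of that current, was at 66.9, 62.1 and 60.5 CPM with wild type and 29.2, 28.6 and 30.6 CPM with Y238A, 1.10 ± 0.07 (SE) (adjusted p = 6.49e-11), while Orai3 was at 5.6, 6.65 and 6.05 CPM with wild type and 16.8, 16.4 and 17.8 CPM with Y238A, -1.48 ± 0.08 (SE) (adjusted p = 6.10e-12). The store sensors Stim1 and Stim2 changed by 0.58 and -0.46, both called. Of the inositol trisphosphate receptors, Itpr1 rose by 1.17 and Itpr3 fell, at -1.68. The stretch-activated channel Piezo1 was at 528, 497 and 481 CPM with wild type and 768, 741 and 736 CPM with Y238A, -0.58 ± 0.07 (SE) (adjusted p = 1.43e-06).

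Potassium channel genes rose in 21 of 33 tested, out of 59 listed, and fell in 3 (Kcng1, Kcnj2 and Kcnn4), with a median of 1.80. Most were at a few CPM or less. The low-count filter kept genes with enough counts in either group alone, so genes silent with Y238A could enter the list. With the stricter filter 16 remained, of which 12 rose and 2 fell, and the median was 2.40. Kcnv2, a modifier of voltage-gated channels, was at 22.7, 24.3 and 22.5 CPM with wild type and 0.158, 0.0596 and 0 CPM with Y238A, 8.27 ± 0.47 (SE) (adjusted p = 4.81e-11; 9.60 without Y238A replicate 1). The large-conductance channel of smooth muscle was detected with wild type at low levels: its beta subunit Kcnmb1 was at 0.485, 0.554 and 0.541 CPM with wild type and 0 counts with Y238A, at least 51.9-fold higher, and the pore Kcnma1 at least 21.3-fold higher. Kcnn4, a calcium-gated channel of non-excitable cells, was at 4.47, 4.12 and 4.29 CPM with wild type and 11.1, 11.4 and 12.2 CPM with Y238A, -1.43 ± 0.07 (SE) (adjusted p = 2.94e-13).

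Sodium-potassium pump and cation-chloride cotransport genes were 11 higher and 10 lower of 27, beside 32.6% higher and 39.4% lower over all genes tested. Their median was -0.00, and its sign turned with the scaling. The water channel Aqp1 was at 1.47, 1.15 and 1.87 CPM with wild type and 23.9, 22 and 19.7 CPM with Y238A, -3.86 ± 0.14 (SE) (adjusted p = 1.04e-14). Annexins, S100 proteins and calmodulin genes, which bind calcium, fell in 25 of 37 and rose in 8, with a median of -0.61. S100a4, a protein of motile cells, was at 122, 132 and 138 CPM with wild type, 945, 999.67 and 1051 CPM with Y238A and 396, 439 and 459.6 CPM with empty vector, -2.93 ± 0.07 (SE) (adjusted p = 2.01e-17).

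Adhesion genes rose in 24 of 42 tested and fell in 11, with a median of 0.54. Besides Itga5 and Vcl, Itga1, a collagen receptor subunit, was at 463, 424 and 393 CPM with wild type and 22.7, 21 and 20.2 CPM with Y238A, 4.32 ± 0.10 (SE) (adjusted p = 2.34e-16). Tln2, a talin, rose by 2.78 ± 0.05 (SE) (adjusted p = 1.01e-19). In contrast Itgb5, a vitronectin receptor subunit, was at 83.5, 86.1 and 88.4 CPM with wild type and 749, 776 and 781 CPM with Y238A, -3.16 ± 0.06 (SE) (adjusted p = 3.29e-19), and Itga3, of the laminin receptor, fell, at -1.73.

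Matrix genes were 17 higher and 14 lower of 48, with a median of 0.22. Over all genes tested, 32.6% were called higher and 39.4% lower. Fbln2, a fibulin, was at 574, 548 and 496 CPM with wild type and 2529, 2644 and 2738 CPM with Y238A, -2.29 ± 0.06 (SE) (adjusted p = 1.07e-16). Col18a1, whose fragment is endostatin, was at 201, 175 and 172 CPM with wild type and 32.2, 28.1 and 27.6 CPM with Y238A, 2.64 ± 0.07 (SE) (adjusted p = 3.51e-17). TGF-beta family genes were 14 higher and 15 lower of 36, with a median of -0.14, and of 0.01 with DESeq2's size factors. Tgfb1 fell, at -1.42, its receptor Tgfbr2 at -1.49 and its effector Smad3 at -1.79, while the activin antagonist follistatin (Fst) rose by 6.45, or 7.08 without Y238A replicate 1. Actin regulators and formins were 18 higher and 14 lower of 38, with a median of 0.15: the Arp2/3 subunit Arpc5 rose by 1.17, and the formins Inf2 and Fhod1 and the kinase Limk1 fell, at -1.36, -0.95 and -1.59.

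The mammary carcinoma label was checked on keratins, adhesion genes and vimentin. Epcam was at 0.476, 0.363 and 0.728 CPM with wild type and 0.673, 1.01 and 0.526 CPM with Y238A, Cdh1 (E-cadherin) at 0.862, 0.661 and 1.29 CPM with wild type and 0.396, 0.715 and 0.8 CPM with Y238A, and Krt18 under 1 CPM in each of the 6 libraries. These defining epithelial markers were near 0 in the line, and their changes were not called (adjusted p = 0.144, 0.146 and 0.609). Without wild-type replicate 3 Epcam was called lower, and without wild-type replicate 2 Cdh1 was called higher. Vimentin (Vim), the mesenchymal filament, was at 592, 772 and 768 CPM with wild type, 2924, 2854 and 2916 CPM with Y238A and 2683, 2680.2 and 2739 CPM with empty vector, -2.03 ± 0.07 (SE) (adjusted p = 1.98e-15). Krt8 was at 10.3, 8.48 and 8.98 CPM with wild type and 0.237, 0.0397 and 0.105 CPM with Y238A, 6.16 ± 0.21 (SE) (adjusted p = 3.65e-13; 7.09 without Y238A replicate 1). Krt19 was at 31, 33 and 29.2 CPM with wild type and 76.7, 67.1 and 64.4 CPM with Y238A, -1.16 ± 0.12 (SE) (adjusted p = 6.34e-08).

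Among epithelial genes, 12 of 24 tested rose and 5 fell, with a median of 0.66, and among mesenchymal genes 13 of 30 rose and 15 fell, with a median of -0.61. Plakoglobin (Jup), a desmosome and junction protein, was at 342, 322 and 324 CPM with wild type and 36.5, 32.3 and 32.4 CPM with Y238A, 3.29 ± 0.10 (SE) (adjusted p = 7.97e-15). Factors of epithelial-mesenchymal transition were called in the opposite direction to vimentin: Zeb1 rose by 1.40, Twist1 by 0.85 and Snai2 by 0.68, all called. Cdh2, N-cadherin, was at 263, 258 and 254 CPM with wild type and 406, 399 and 407 CPM with Y238A, without overlap but not called (adjusted p = 0.33); it was called lower in the fit of the 2 groups alone.

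Markers of other cell types were in part too low to test, the pan-leukocyte and T cell genes among them. The pan-leukocyte gene Ptprc had 46 counts over the 3 wild-type libraries and 4 over the 3 Y238A libraries, the T cell gene Cd3e 18 and 0, and the fibroblast gene Lum 0 and 0. Of 10 leukocyte markers 5 were tested, of which 2 rose and 3 fell. Their summed level was 27.91 to 29.02 CPM with wild type, 103.3 to 108.2 CPM with Y238A and 16.26 to 19.46 CPM with empty vector. Against the empty vector, wild type was higher in 3 of the 5 and lower in 2. The members that fell from Y238A to wild type were Lyz2, Cd68, at 19, 19.6 and 19.4 CPM with wild type and 75, 70.3 and 70.1 CPM with Y238A, and Cd14, at 4.88, 4.93 and 5.6 CPM with wild type and 31.4, 31.3 and 32 CPM with Y238A. Over the 3 empty vector libraries, Cd68 had 905 counts, Cd14 3100 and Lyz2 535. The wild-type libraries held 5828, 1543 and 157. Those that rose were Csf1r, with 808 counts over the wild-type libraries and 40 over the Y238A libraries, and Itgam, with 231 and 12. Of 9 fibroblast markers 5 were tested and 2 fell, Pdgfra at -2.66 and Cd34 at -2.31. With DESeq2, only 1 of the fibroblast markers was called lower. Of 10 endothelial and adipocyte markers 6 were tested and 2 rose, Vwf at 3.88 (4.52 without Y238A replicate 1) and Tek at 3.02, with Pecam1 at 74 and 55 counts. Tek lay between 2.54 and 4.05 over the alternatives and was not called without wild-type replicate 1 or without Y238A replicate 1.

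Proliferation genes were lower with wild type by small amounts. Of 46 S-phase genes 33 fell and 6 rose, with a median of -0.38, and of 53 G2/M genes 36 fell and 7 rose, with a median of -0.34. With DESeq2's size factors the counts were 29 lower and 9 higher for S phase, and 29 lower and 12 higher for G2/M. Mcm5, a subunit of the replicative helicase, was at 132, 139 and 146 CPM with wild type and 309, 287 and 292 CPM with Y238A, -1.09 ± 0.05 (SE) (adjusted p = 9.78e-14). The mitotic cyclin Ccnb2 was at 18.9, 21.8 and 22.5 CPM with wild type and 67.5, 68.4 and 62.2 CPM with Y238A, -1.65 ± 0.08 (SE) (adjusted p = 1.62e-12). Against these, the cell cycle factor Mybl2 rose by 1.39 and the kinetochore motor Cenpe by 1.06. The kinase inhibitor p21 (Cdkn1a) was at 76.7, 63 and 65.6 CPM with wild type, 39.7, 36.5 and 35 CPM with Y238A and 10.04, 7.55 and 9.06 CPM with empty vector, 0.88 ± 0.13 (SE) (adjusted p = 1.36e-05), within p53 targets that were 10 higher and 13 lower of 29. All genes tested were 32.6% higher and 39.4% lower. Pmaip1, the pro-apoptotic Noxa, was at 88.5, 88.6 and 87 CPM with wild type and 3.6, 2.6 and 3.32 CPM with Y238A, 4.79 ± 0.12 (SE) (adjusted p = 1.62e-17).

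Cytosolic ribosomal protein genes were 61 lower and 4 higher of 78, with a median of -0.26, and 38 lower and 7 higher, with a median of -0.11, under DESeq2's size factors. Rpsa, a small-subunit protein, was at 1248, 1410.1 and 1396 CPM with wild type, 2583, 2614 and 2628 CPM with Y238A and 3184, 3226 and 3285 CPM with empty vector, -0.95 ± 0.05 (SE) (adjusted p = 1.83e-12). Of the 13 mitochondrially encoded genes, 2 rose and 1 fell, and with DESeq2's size factors 6 rose. Cholesterol synthesis genes fell in 21 of 30 and rose in 1, with a median of -0.71. The desaturase Scd2 was at 226, 260.0 and 268 CPM with wild type and 1403, 1631 and 1711 CPM with Y238A, -2.65 ± 0.11 (SE) (adjusted p = 1.85e-12).

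Glycolysis and hypoxia genes were 16 higher and 19 lower of 43, beside 32.6% higher and 39.4% lower over all genes tested. Among them the glucose transporter Slc2a1 rose by 1.295 and Tpi1, triosephosphate isomerase, fell, at -1.33. Stress genes of the endoplasmic reticulum were 16 higher and 14 lower of 35. Herpud1, of its degradation machinery, was at 306, 325 and 302 CPM with wild type and 62.7, 62.1 and 57.6 CPM with Y238A, 2.35 ± 0.07 (SE) (adjusted p = 6.66e-16), whereas the chaperones Pdia4 and Dnajb11 fell, at -1.10 and -1.23.

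**Figure D4:**
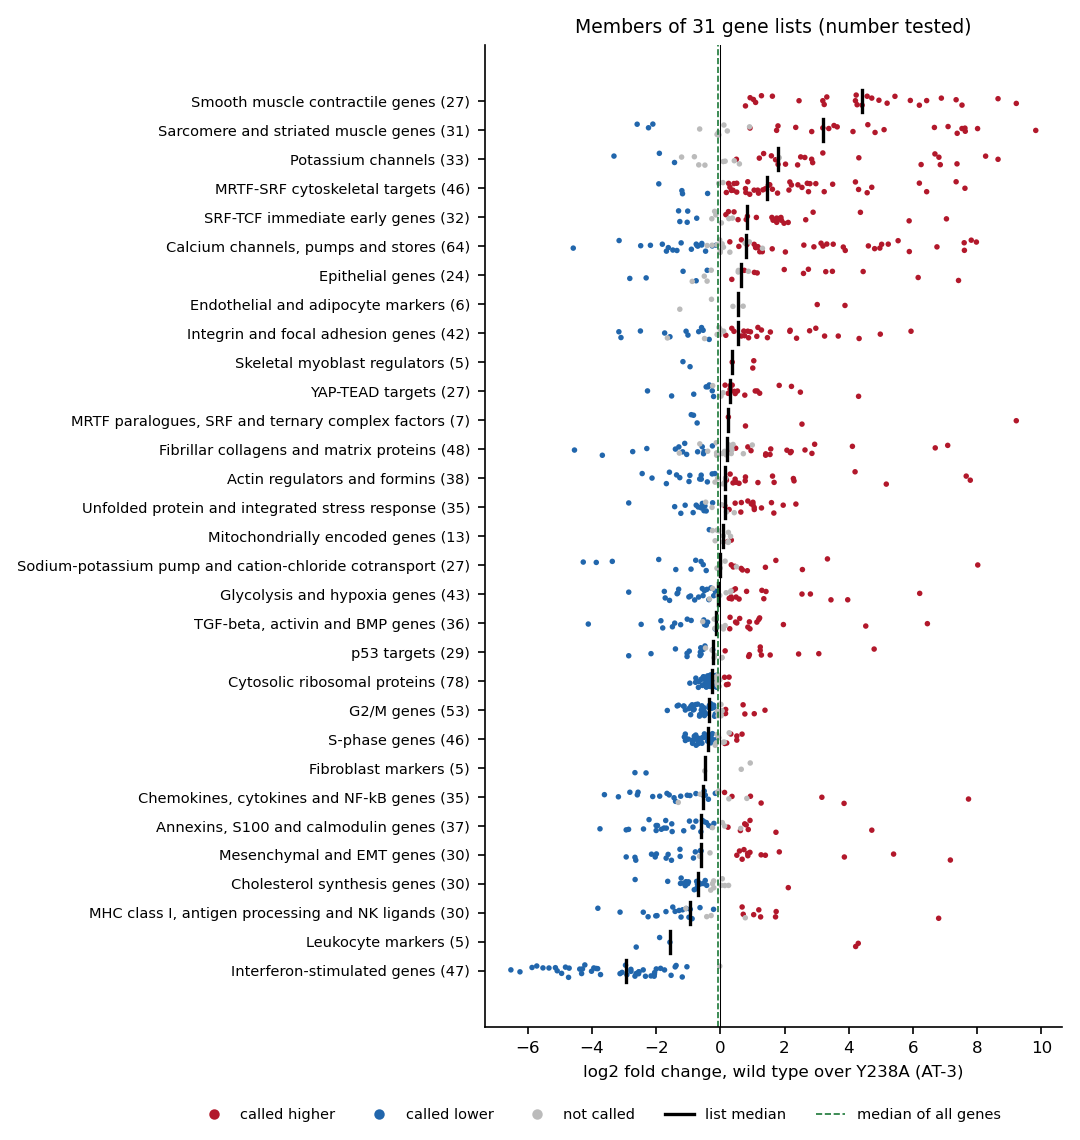
Log2 fold change of wild type over Y238A in AT-3 (horizontal axis) for the members of 31 gene lists, 1 point per gene tested, red where called higher, blue where called lower and grey where not called, with black bars for list medians and a dashed line for the median of all genes (-0.08). The smooth muscle list has 27 of 27 members higher and the interferon list 46 of 47 lower.

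Each MRTFA form was also set against the empty vector, which shares its libraries between these comparisons and with the one above, so the values are given side by side only. Wild type over empty vector had 5571 genes higher (33.8%) and 6765 lower (41.0%), and Y238A over empty vector 3535 higher (21.4%) and 4336 lower (26.3%). The MRTF-SRF list had a median of 1.06 for wild type over empty vector, with 36 higher and 8 lower, and of -0.37 for Y238A over empty vector, with 6 higher and 32 lower. For smooth muscle genes the medians were 3.68 and -0.31, with 26 of 27 higher for wild type and 15 of 27 lower for Y238A. For the interferon list they were -1.47 and 2.13, with 38 of 47 lower for wild type and 42 of 47 higher for Y238A. Ribosomal protein genes were lower with both forms, in 77 of 78 for wild type and 78 of 78 for Y238A.

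The same constructs in E0771, which shares no library with AT-3, gave fewer calls: 2490 genes higher with wild type (15.1%) and 2043 lower (12.4%), or 1970 higher and 3228 lower with library totals as the scaling. Across 239 genes expressed in AT-3 and close to absent from E0771, E0771 wild-type replicate 2 held a median of 0.562%, Y238A replicate 1 held 0.273% and empty vector replicate 2 held 1.29% of the AT-3 level with the same construct; no other E0771 library held more than 0.0606%. Without these 3 libraries and AT-3 Y238A replicate 1, the E0771 counts were 1803 higher and 1508 lower. The MRTFA construct entry differed in E0771 by 1.27 on the log2 scale, beside 1.26 in AT-3. Genes were kept by their counts in the AT-3 wild-type and Y238A libraries alone. Genes with enough counts in E0771 but not in AT-3 were left out. The E0771 counts and the shares below hold for this set only. With no filter, E0771 had 2121 genes higher and 2087 lower, beside 6256 and 5602 in AT-3. The shares without the filter were not tested. Of the genes higher in AT-3, 1802 were also higher in E0771, which is 33.5% of the AT-3 genes and 72.4% of the E0771 genes, and 191 were lower there. Of those lower in AT-3, 1608 were also lower in E0771, 24.8% of the AT-3 and 78.7% of the E0771 genes, and 350 were higher there. The effect differed between the lines, by the interaction term of the same fit, in 3209 genes in the direction of a higher AT-3 value (19.5%) and in 5302 in the direction of a lower one (32.2%); with DESeq2's size factors these were 4173 and 3842.

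The MRTF-SRF list had a median of 1.45 in AT-3 and 1.43 in E0771, where 44 of 46 rose; 13 members had a higher effect in AT-3 and 15 a lower one. Myh9 and Lima1, not called in AT-3, rose in E0771 by 0.72 and 1.83, and the difference between lines was -0.76 ± 0.06 (SE) for Myh9 (adjusted p = 1.35e-09) and -1.751 ± 0.10 (SE) for Lima1 (adjusted p = 2.24e-11). Smooth muscle genes had a median of 4.42 in AT-3 and 2.34 in E0771, with 12 of 27 effects higher in AT-3. Srf changed by 2.54 in AT-3 and 1.49 in E0771, a difference of 1.05 ± 0.10 (SE) (adjusted p = 4.97e-08), whereas Acta2 changed by 4.57 and 4.88, with a difference of -0.31 ± 0.16 (SE) that was not called (adjusted p = 0.133).

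Interferon-stimulated genes fell in both lines, with medians of -2.95 in AT-3 and -1.48 in E0771, where 44 of 47 fell and 1 rose. In 37 of 47 the effect was lower in AT-3. Ifit1 changed by -4.82 in AT-3 and -1.64 in E0771, a difference of -3.18 ± 0.21 (SE) (adjusted p = 1.60e-10). For Isg15 the values were -2.05 in AT-3 and -2.20 in E0771; that difference was not called (adjusted p = 0.596).

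Members of other lists also differed between the lines. Trpv2 changed by 7.597 in AT-3 and 3.07 in E0771, a difference of 4.52 ± 0.36 (SE) (adjusted p = 1.44e-07). Tln2 changed by 2.78 in AT-3 and 0.08 in E0771, a difference of 2.70 ± 0.06 (SE) (adjusted p = 1.08e-16). Vdr changed by -5.14 in AT-3 and 0.11 in E0771, a difference of -5.25 ± 0.18 (SE) (adjusted p = 4.80e-12), while H2-K1, called in each line, was at -1.28 in AT-3 beside 0.43 in E0771, with a difference of -1.72 ± 0.06 (SE) (adjusted p = 3.73e-14).

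**Figure D5:**
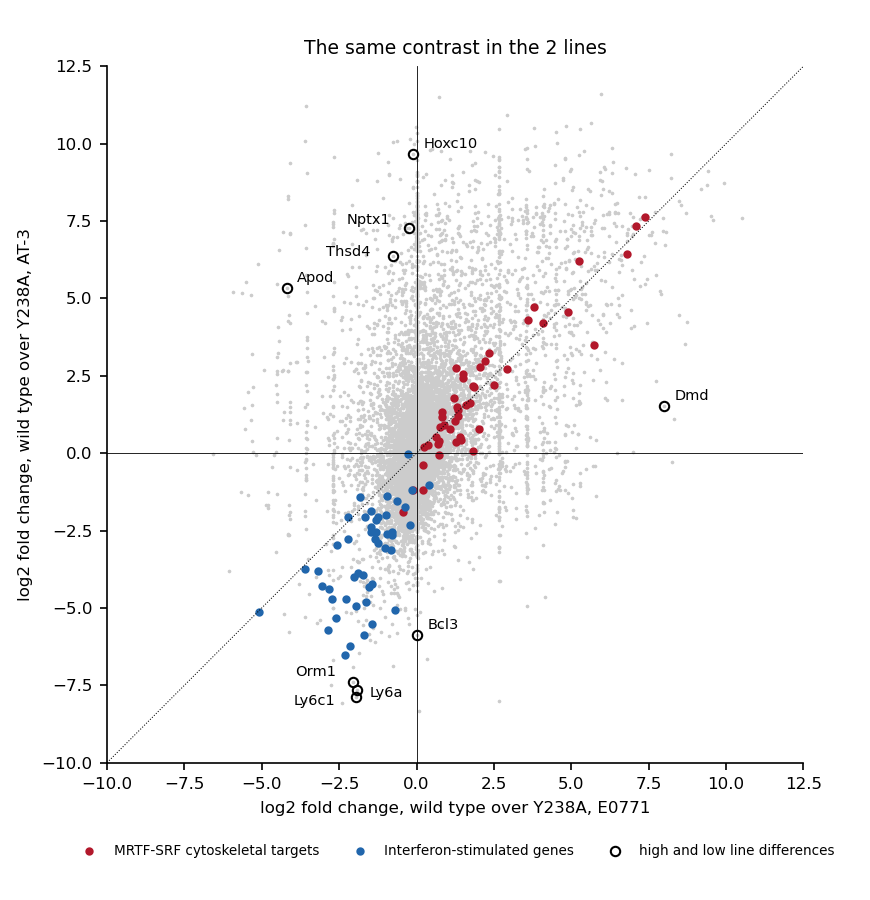
Log2 fold change of wild type over Y238A in AT-3 (vertical axis) against that in E0771 (horizontal axis), 1 point per gene tested, with MRTF-SRF targets in red, interferon-stimulated genes in blue, 4 of the 5 highest and the 5 lowest line differences circled and a dotted line where both are equal. The median of the interferon list was -2.95 in AT-3 and -1.48 in E0771, so most blue points lie below the dotted line.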

How the data were processed

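Messenger RNA was sequenced in 18 libraries of 6 groups, of which the 6 AT-3 libraries with wild-type and Y238A MRTFA are compared here. RNA was purified with Qiagen RNeasy and a NuGen Universal Plus mRNA kit made the libraries, per the labels' protocols. The authors deposited raw counts per gene in 1 table, aligned with STAR to GRCm38 and counted with featureCounts, per the submitters' processing notes. Versions, annotation release, strandedness and how the MRTFA entry was made are not given in the sources used here; without strand, overlapping antisense genes cannot be told apart. Between 61.9% and 64.6% of nonzero counts per library were even, and among counts of 1 or 2 in the 6 libraries 82.1% to 83.6% were 2, so each mate of a read pair seems to have been counted by itself. Counting intervals cover counting error only and are then too narrow, and bounds against the floor too high.

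Genes were kept by filterByExpr on the 6 libraries (minimum count 10, minimum total 15), and all 18 libraries were fitted with 6 group means and 12 residual degrees of freedom in edgeR 4.0.16 (R 4.3.3; TMM, robust quasi-likelihood F test), with Benjamini-Hochberg adjustment over 16485 genes and a threshold of 0.05. The SE is the log2 fold change over the square root of F. Where a group had 0 counts, the fold is a bound computed against a floor of 3 counts over that group; where it had 1 to 3, a 95% counting interval is printed. Lists were described by counts and medians. Gene names came from Ensembl IDs, and 127 entries had none.

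The members, the 31 gene lists and the named genes were chosen with earlier results of these data known. Named were the regulators; the 10 highest and 10 lowest fold changes past the threshold with non-overlapping groups, a mean of at least 1 CPM and a proper symbol (no gene model names); the same above 100 CPM in the higher group; up to 6 members per list by smallest p; and the 5 highest and 5 lowest line differences. Fewer genes are described than the rule allows, and members further down its order (such as Acta2, Orai1 and Trpv2) are named beside others after their values were seen. Some genes of the lists and of this rule are not reported here. Promoters came from a RefSeq table of GRCm38.p6 that held 12166 of the tested genes. Alternatives were another tool (DESeq2 1.42.0), scaling by DESeq2's size factors or by library totals in edgeR, a stricter low-count filter or none, fewer libraries in the fit, a replicate block, an added size limit, each library left out, and the 4 libraries with transcripts of other groups left out together.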

Additional observations from a re-analysis of the deposited data

Results flagged for a closer look

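Each of these genes had an effect of wild type over Y238A in AT-3 that differed from the effect in E0771 by the interaction term of the edgeR quasi-likelihood fit, and values are the AT-3 effect minus the E0771 effect on the log2 scale, with n = 3 libraries a group.

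Hoxc10, a homeobox gene, differed by 9.77 ± 0.70 (SE) (adjusted p = 2.97e-09). In AT-3 it was at 1.16, 0.938 and 1.07 CPM with wild type and at 0 counts with Y238A, at least 105-fold higher, so the fitted difference depends on the prior count. Its E0771 effect was -0.11.

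Apod, a lipid carrier, differed by 9.54 ± 0.50 (SE) (adjusted p = 7.43e-12). It was higher with wild type in AT-3, at 5.34, and lower with wild type in E0771, at -4.198, and both were called. Nptx1, a neuronal pentraxin, differed by 7.50 ± 0.46 (SE) (adjusted p = 1.42e-08). In AT-3 it was at 129, 89.4 and 94.2 CPM with wild type and 1.38, 0.457 and 0.147 CPM with Y238A, and its AT-3 effect was 7.28, or 8.50 without Y238A replicate 1, beside -0.23 in E0771. Thsd4, of the thrombospondin-repeat proteins, differed by 7.15 ± 0.39 (SE) (adjusted p = 1.94e-11). Its AT-3 effect was 6.38, or 7.19 without Y238A replicate 1.

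In the other direction, Dmd, the dystrophin gene, differed by -6.48 ± 0.61 (SE) (adjusted p = 3.87e-08). It rose in both lines, by 1.52 in AT-3 and 7.997 in E0771. Ly6c1 differed by -5.93 ± 0.17 (SE) and Ly6a by -5.74 ± 0.12 (SE) (adjusted p = 2.99e-14 and 3.94e-17), with E0771 effects of -1.96 and -1.92. Bcl3, an NF-kB cofactor, differed by -5.90 ± 0.36 (SE) (adjusted p = 1.54e-10), and was at 0.251, 0.149 and 0.354 CPM with wild type and 11.3, 16.1 and 17 CPM with Y238A in AT-3. Orm1, an acute-phase protein, differed by -5.35 ± 0.74 (SE) (adjusted p = 4.61e-06), with an AT-3 effect of -7.40, or -10.87 without wild-type replicate 2.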

How the results depend on the processing

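The direction that held more AT-3 genes depended on the scaling, the filter and the libraries in the fit. More were lower than higher as reported, with library totals (5014 higher and 7021 lower) and with the stricter filter (4223 higher and 5572 lower). More were higher with DESeq2 (6071 higher and 5183 lower), with no filter (6256 higher and 5602 lower), with the 2 groups alone (6197 higher and 5828 lower), with the 9 AT-3 libraries alone (6321 higher and 5822 lower) and without the 4 libraries that held transcripts of other groups (5964 higher and 5442 lower). More were also higher when wild-type replicate 2 (5798 higher and 5357 lower) or Y238A replicate 1, 2 or 3 (5854 to 5879 higher and 5301 to 5424 lower) was left out. Over these and the other leave-outs the median of all genes lay between -0.1377 (library totals) and 0.1783 (no filter, 26062 genes tested); the cause was not tested. Each of these counts was within 1.5 times the reported one.

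An added limit of 1 on the log2 fold change left 3368 genes higher and 2137 lower in AT-3, 918 higher and 302 lower in E0771, and line differences of 1686 higher and 1539 lower, by its own construction. With library totals, 3228 genes were lower with wild type in E0771, against 2043 with TMM. Allowing 1 mismatch in the A or T positions of the CArG box gave a share of 13.16% among promoters of genes called higher (2.96% without the mismatch), 6.7% among those called lower and 9.98% among all promoters. Leaving out 1 library at a time gave 5152 to 5879 genes higher and 5301 to 6381 lower in AT-3, 2148 to 2435 higher and 1597 to 2050 lower in E0771, line differences of 2884 to 3770 higher and 3845 to 5410 lower, and 1.02 to 1.45 for the construct difference.

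A few genes near 0 reversed. Myh9 was at 0.1049 with DESeq2 and with its size factors in edgeR, 0.0417 with no filter, 0.0215 with the stricter filter, 0.051 with the 2 groups alone, 0.0635 with the 9 AT-3 libraries, 0.0108 without the 4 libraries and -0.0564 to 0.0916 in the leave-outs. Ifit2 was at 0.1353 with DESeq2 and with its size factors, 0.0718 with no filter, 0.052 with the stricter filter, 0.0816 with the 2 groups alone, 0.0939 with the 9 AT-3 libraries, 0.0393 without the 4 libraries and -0.0566 to 0.1241 in the leave-outs. Krt18 was at -0.5926 to 0.0123 in the leave-outs. Of 268 named genes, 254 kept their direction and their side of the threshold in every alternative in which they were tested; Acsm1, Tek, Mef2c, Pax3, mt-Co3 and mt-Nd5 lost their call in at least 1, and Kdr, Cdh1, Epcam, Cdh2, Lima1 and Myh9 gained one.

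Replicate numbers are shared between the groups in the labels, which do not say that they pair libraries. The correlation of deviations from the group mean over 12114 genes was 0.09, 0.046 and 0.038 for pairs of the same number. Pairs of different numbers lay between -0.08 and 0.056, the highest being wild-type replicate 3 with Y238A replicate 2. These small values do not settle whether libraries of a number were handled together, and the main fit used no pairing. With a replicate block, 5336 genes were higher and 6581 lower in AT-3, 2517 higher and 2120 lower in E0771, and the construct difference was 1.23 (edgeR adjusted p = 1.24e-05).

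With 3 libraries a group, the precision rests on the spread between libraries. A count of 0 in a group is a limit of depth. The amount of construct RNA differed between the MRTFA forms, and its part in any value was not tested.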
